A study of Mus musculus with 4 samples.

Results

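Activator protein 1 (AP-1) is a transcription factor made of a pair of basic leucine zipper proteins, and the 10 genes examined here encode its FOS and JUN subunits (*Fos*, *Fosb*, *Fosl1*, *Fosl2*, *Jun*, *Junb* and *Jund*), the related factor *Atf3*, and *Egr1* and *Ier2*, which belong to the same early response. They were chosen by symbol, with no measured value in the rule, and all 10 were found among the 48587 gene symbols of the count table. Primary vascular smooth muscle cells (VSMCs) from the descending aorta of young adult C57BL/6J mice were transduced in serum-containing medium with a lentivirus expressing a hairpin, either shCtrl, a nontargeting hairpin against a plant microRNA sequence, or sh*Mettl14*, a hairpin against the m6A methyltransferase subunit *Mettl14*. Both groups thus carried a lentiviral vector with GFP, and a single hairpin represented the knockdown. Poly-A–enriched RNA was sequenced from 2 libraries per hairpin, which carry the letters A and B, and the letters are not stated to mark separate mice or a shared culture, so that p values measure the spread between these libraries, which may be technical.

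Immediate early genes are transcribed within minutes of a growth factor, serum or stress signal, without new protein synthesis. Mitogen-activated protein kinases (MAPKs) act on factors such as SRF, ELK1 and CREB at their promoters, and their short-lived mRNAs are cleared through AU-rich elements in the 3′ UTR. JUN proteins pair with each other or with FOS proteins, whereas FOS proteins need a JUN partner. In VSMCs, AP-1 and EGR1 are known for their response to arterial injury and PDGF, where they act on proliferation, migration and matrix genes.

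Promoter sequences are shown for *Fos*, *Jun* and *Junb*, because the levels of *Fos* and *Jun* were close in the 4 libraries while *Junb* differed several fold between them. Each is the 250 bases before the RefSeq start on GRCm38.p6, written 5′ to 3′ on the gene's strand. Capitals mark a match on either strand to TGACGT, the core of the cyclic AMP response element (CRE), or to TGACNTCA. The latter is a CRE-like form that is the full element only when N is G. The *Fos* stretch is chr12:85473640-85473889 (plus strand), the *Jun* stretch chr4:95052223-95052472 (minus strand) and the *Junb* stretch chr8:84978749-84978998 (minus strand).
Fos: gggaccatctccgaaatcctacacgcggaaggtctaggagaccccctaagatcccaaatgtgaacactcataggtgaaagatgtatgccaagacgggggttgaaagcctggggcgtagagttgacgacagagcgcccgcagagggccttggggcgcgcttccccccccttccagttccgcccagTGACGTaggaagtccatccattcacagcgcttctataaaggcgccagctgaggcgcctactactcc
Jun: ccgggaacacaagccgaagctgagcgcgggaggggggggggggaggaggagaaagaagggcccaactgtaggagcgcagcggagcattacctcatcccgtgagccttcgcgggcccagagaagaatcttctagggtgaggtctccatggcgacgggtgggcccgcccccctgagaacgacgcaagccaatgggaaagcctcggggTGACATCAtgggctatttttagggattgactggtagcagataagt
Junb: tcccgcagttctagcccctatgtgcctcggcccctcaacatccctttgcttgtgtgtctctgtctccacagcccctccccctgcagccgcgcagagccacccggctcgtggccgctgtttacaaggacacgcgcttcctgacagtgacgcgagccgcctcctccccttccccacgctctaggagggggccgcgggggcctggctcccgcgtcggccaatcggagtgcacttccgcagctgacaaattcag

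The *Fos* core site began 66 bases before the start and the *Jun* site, TGACATCA with A at N, 45 bases before it, and the *Junb* stretch held neither form. RefSeq sequences were found for 7 of the 10 genes (*Atf3*, *Fos*, *Fosb*, *Fosl2*, *Jun*, *Jund* and *Junb*). The RefSeq starts of *Fosl2*, *Jund* and *Atf3* lie 671, 1210 and 34706 bases from the GENCODE M21 gene start, so motifs are given for the other 4, whose starts lie within 30 bases of it. In windows from 250 bases before to 50 bases after the start of these 4, TGACGT was found in *Fos* and TGACNTCA in *Jun*, against 7.51% and 8.83% of all 32851 promoter windows, the former motif being part of the latter when N is G. The AP-1 site in the strict form TGANTCA was found in none of the 4 windows and in 7.81% of all windows, and the CArG box bound by SRF in none of the 4 and in 1.63% of all. The letters TATAAA of the TATA box were present in *Fos* and *Junb* and in 13.6% of all windows. They began 33 bases before the start in *Fos*. In *Junb* they began at the RefSeq start itself, past the stretch shown and 30 bases before the GENCODE M21 start. These matches on both strands describe letters in a short window only.

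Several of the 10 genes have unspliced transcripts. *Jun*, *Junb*, *Jund* and *Ier2* have 1 exon in the coding transcript of GENCODE M21, as do 3.15% of the 14390 tested genes with a coding transcript, and the median transcript of the 10 genes was 2046 bases against 2954 for all. At least 1 ATTTA pentamer was found in the 3′ UTR of 9 of the 10, all but *Ier2*, and in 63.9% of all. The longer AU-rich word TTATTTATT was found in 2, *Fos* and *Fosl2*, and in 7.08% of all. This word, of the class that limits the life of such mRNAs, is shown in capitals with its flanks, at chr12:85477103-85477131 for *Fos* and chr5:32156871-32156899 for *Fosl2*, both on the plus strand of GRCm38.
Fos: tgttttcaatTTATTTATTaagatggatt
Fosl2: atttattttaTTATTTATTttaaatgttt

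GGACT, a common form of the sequence that the METTL3–METTL14 complex methylates, occurred at least once in 9 of the 10 transcripts and in 91.5% of all, with a median of 1.49 per kb in the 10 genes and 1.05 in all. *Fosl1* was the gene without it, and *Ier2* had the densest, with 5 copies or 3.29 per kb. No m6A value was measured in these libraries.

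Library totals were 114343653 to 124815868 counts, so that 3 counts, the number a count of 0 could hide, correspond to at most 0.0262 CPM (counts per 1000000 counts), and all 10 genes lay far above this limit and passed the filter on low counts. *Mettl14* was at 18.0 and 19.9 CPM with shCtrl (A, then B) and at 4.60 and 4.37 CPM with its own hairpin. All CPM here were scaled by edgeR's TMM method. The smooth muscle genes *Acta2* and *Tagln* were abundant (2072 to 3546 and 1616 to 2449 CPM). *Myocd*, the smooth muscle coactivator of SRF, was at 0.546 CPM in shCtrl A and 0.918 in sh*Mettl14* A, against 7.10 in shCtrl B and 6.60 in sh*Mettl14* B. Endothelial markers were uneven, with *Emcn* at 484 to 2099 CPM, *Pecam1* at 477 to 820 CPM and *Cdh5* at 508 to 818 CPM. *Erg* was at 87.2 to 154 CPM, *Vwf* at 16.4 to 18.9, *Tek* at 5.04 to 10.9, *Kdr* at 5.06 to 9.75 and *Cldn5* at 0.574 to 1.15 CPM. The summed level of the 8 endothelial markers examined was 1749 CPM (A) and 3931 CPM (B) with shCtrl, and 1654 CPM (A) and 2388 CPM (B) with sh*Mettl14*. The 8 smooth muscle markers summed to 6797 and 5771 CPM with shCtrl and 4441 and 4810 CPM with sh*Mettl14*. Within both letters 6 of them were lower with sh*Mettl14*, against 27.7% of all tested genes. So were *Fosl1*, *Jun*, *Egr1*, *Atf3* and *Ier2* of the 10 genes. Markers of striated muscle summed to 32.3 and 17.1 CPM in shCtrl A and B and to 11.2 and 19.0 CPM in sh*Mettl14* A and B. Among them *Myh4* and *Myh6* were at 5.50 and 4.14 CPM in shCtrl A, at 0.278 and 0 in shCtrl B and at 0 in both sh*Mettl14* libraries. Markers of adventitial fibroblasts summed to 721 to 909 CPM. Nearly all of the fibroblast sum came from *Cd34* (414 to 505 CPM), *Ly6a* (195 to 282) and *Dcn* (68.2 to 160). *Dpt* (0.146 to 0.488 CPM), *Pi16* (0.471 to 0.968) and *Lum* (0 to 0.377) were low in each library. Leukocyte markers summed to 11.2 to 15.3 CPM, with *Adgre1*, *Itgam* and *Cd3e* at or near 0. AP-1 and immediate early genes are not particular to smooth muscle, the part of the other cells in their levels was not tested, and in bulk RNA fewer cells of a type and less RNA per cell cannot be told apart.

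Levels between genes were compared as CPM per kb of exon (the merged exons of all GENCODE M21 transcripts of a gene). On this scale *Junb* was highest with a mean of 104 over the 4 libraries, followed by *Egr1* (75.6), *Ier2* (64.2), *Jund* (50.5), *Fos* (43.4), *Jun* (38.8), *Fosl2* (31.0), *Fosl1* (21.2), *Atf3* (5.77) and *Fosb* (3.003). Neighbours in this order overlapped in their range over the libraries, apart from *Fosl1* (13.9 to 25.7) and *Atf3* (4.45 to 7.77). *Junb* was thus the highest of the 10 in shCtrl A and sh*Mettl14* A but only the fourth in shCtrl B.

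**Figure D1:**
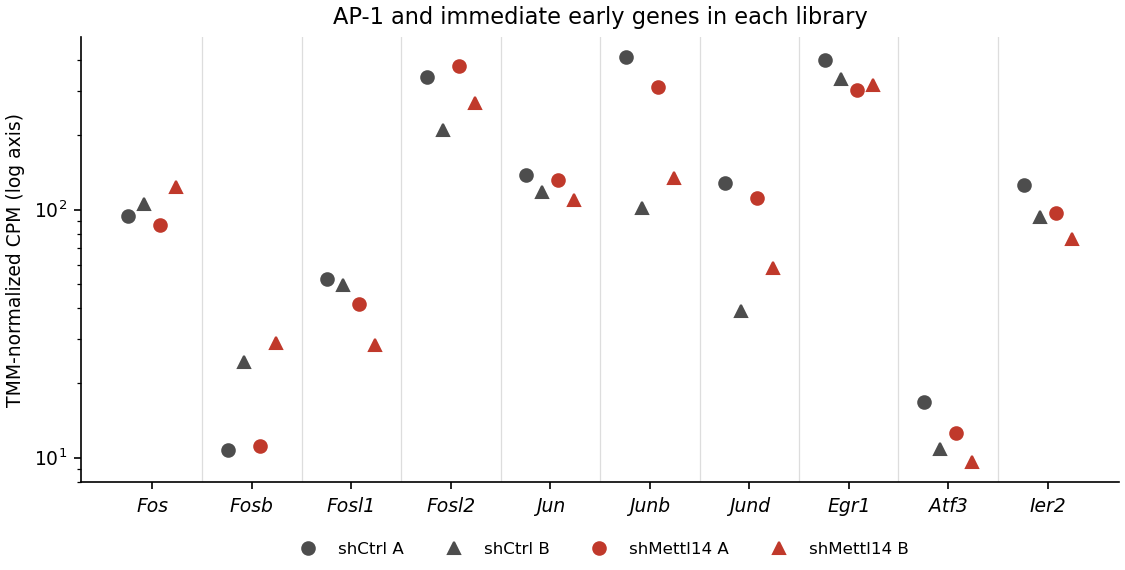
TMM-normalized CPM of the 10 genes (log axis) in each library, with shCtrl in grey, sh*Mettl14* in red, circles for letter A and triangles for letter B. Both A libraries lie above both B libraries for *Fosl2*, *Jun*, *Junb*, *Jund*, *Atf3* and *Ier2*, most widely for *Junb* and *Jund*, and below them for *Fos* and *Fosb*, more widely for *Fosb*. Both sh*Mettl14* libraries lie below both shCtrl libraries for *Fosl1* and *Egr1*.

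The first comparison asked whether the AP-1 genes differed between sh*Mettl14* and shCtrl. None of the 10 genes passed an adjusted p of 0.05 in edgeR's quasi-likelihood test, against 0% of the 18916 genes tested, and none had an unadjusted p under 0.05, against 1.67% of all. *Mettl14* itself, with a log2 fold change of −2.08 (SE 0.25, unadjusted p = 0.00039 from edgeR), also had an adjusted p of 0.99997. A count of 0 by adjusted p in this fit therefore does not show that a gene was unchanged. DESeq2's Wald test called 0 of the 10 at either level, against 0.0172% of 29127 genes (5 genes) by adjusted p and 1.52% by unadjusted p. Of the 10 genes 5 were lower with sh*Mettl14* within both letters, against 27.7% of all tested genes, 2 were higher within both, against 30.0%, and 3 had opposite signs. Both sh*Mettl14* libraries were below both shCtrl libraries for 2 genes (13.3% of all genes) and above them for 0 (14.7% of all). For 7 of the 10 the difference was smaller than its standard error (SE), a count for which no share over all tested genes is given. The median log2 fold change of the 10 was −0.14, against 0.0094 for all tested genes. This median was 0.021 without shCtrl A, −0.37 without sh*Mettl14* A and −0.46 without shCtrl B. All 10 transcripts have a GC content above the median of 50.3% over 8806 coding genes of at least 10 CPM, and across these genes the hairpin ratio went down with GC content within A (Spearman −0.31, median ratio 0.12 in the tenth of lowest and −0.15 in the tenth of highest GC content) but not within B (−0.012). With GC-bin offsets, described below with the letters, the median of the 10 was −0.050, against −0.00059 for all genes of that fit. For a single gene, the smallest two-sided p that exact permutation of 4 libraries allows is 0.333.

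*Fosl1*, which encodes FRA-1, a FOS protein without a transactivation domain of the c-FOS type that accumulates in serum-stimulated and migrating cells, showed the largest difference. It was at 52.3 CPM in shCtrl A, 49.8 in shCtrl B, 41.7 in sh*Mettl14* A and 28.3 in sh*Mettl14* B. Both knockdown libraries were thus below both controls, at 79.7% of the control within A and 56.8% within B. The log2 fold change was −0.55 (SE 0.26, unadjusted p = 0.088 and adjusted p = 0.99997 from edgeR, the latter the same for all 10 genes), and it lay between −0.85 and −0.29 when each library was left out in turn, nearest to 0 without sh*Mettl14* B. *Fosl1* (ENSMUSG00000024912, plus strand of chromosome 19 from 5447547 to 5455946) shares 57.2% of its exon bases with *Ccdc85b* on the other strand. Whether strand was used in counting is not given in the sources used here. *Ccdc85b* had 6853 counts in A and 1462 in B with shCtrl, and 6360 in A and 2371 in B with sh*Mettl14*, and its part in the counts of *Fosl1* was not tested.

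The other FOS genes had no difference beyond their spread. *Fos*, the classical partner of JUN, was at 94.0 and 105 CPM in shCtrl A and B and at 86.9 and 123 CPM in sh*Mettl14* A and B, so that the 2 knockdown libraries enclosed the 2 controls. Its log2 fold change was 0.08 (SE 0.25), with opposite signs within A (−0.11) and within B (0.23), and −0.19 without sh*Mettl14* B. *Fos* (ENSMUSG00000021250) lies on the plus strand of chromosome 12 from 85473890 to 85477273 on GRCm38, the build of all places given here. *Fosb*, on the minus strand of chromosome 7 from 19302696 to 19310051 (ENSMUSG00000003545), was the least abundant of the 10 per kb. It was at 10.7 and 24.2 CPM in shCtrl A and B and at 11.2 and 28.9 in sh*Mettl14* A and B. Both B libraries were more than 2-fold above both A libraries, and within a letter the hairpins differed by 0.06 (A) and 0.25 (B) on the log2 scale. Its log2 fold change of 0.20 (SE 0.60) was −0.64 without sh*Mettl14* B, −0.27 without shCtrl A and 0.90 without shCtrl B.

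*Fosl2* (ENSMUSG00000029135, plus strand of chromosome 5 from 32135801 to 32157842), which encodes FRA-2, was at 341 and 210 CPM in shCtrl A and B and at 380 and 269 CPM in sh*Mettl14* A and B. It was the only FOS gene besides *Fosb* to be higher with sh*Mettl14* within both letters (0.16 in A and 0.36 in B), but the A and B controls differed by more than this, and the groups overlapped. The log2 fold change was 0.24 (SE 0.33, unadjusted p = 0.50 from edgeR) and became −0.034 without sh*Mettl14* A, −0.076 without shCtrl B and 0.64 without shCtrl A. *Fosl2* and *Fosl1* therefore had opposite signs within both letters, a contrast that was not tested.

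Among the JUN genes, *Jun* was the steadiest. It was at 137 and 118 CPM in shCtrl A and B and at 131 and 109 CPM in sh*Mettl14* A and B, which is 95.7% of the control within A and 92.8% within B. The groups overlapped, and the log2 fold change was −0.08 (SE 0.21), which turned to 0.035 without shCtrl A, to 0.047 without sh*Mettl14* B and to 0.0015 after a correction for the GC content of transcripts that is described below. *Jun* (ENSMUSG00000052684, minus strand of chromosome 4 from 95049034 to 95052222) shares 7.28% of its exon bases with *Junos* on the other strand, which had 89 to 160 counts.

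*Junb*, an early JUN gene whose product activates less strongly than JUN at many sites, was at 412 and 101 CPM in shCtrl A and B and at 311 and 135 CPM in sh*Mettl14* A and B. *Jund*, the JUN gene that is present in resting cells and varies least with serum in most cell types, was at 129 and 38.9 CPM in shCtrl A and B and at 112 and 57.9 CPM in sh*Mettl14* A and B. Both genes were lower with sh*Mettl14* within A (log2 ratios of −0.41 and −0.20) and higher within B (0.41 and 0.58). The log2 fold changes over both letters were −0.20 (SE 0.75) for *Junb* and 0.02 (SE 0.64) for *Jund*. Their direction depended on which library was left out. *Junb* gave 0.28 without sh*Mettl14* B and 1.14 without shCtrl A, against −0.93 without sh*Mettl14* A and −0.89 without shCtrl B. *Jund* gave 0.42 without sh*Mettl14* B and 1.13 without shCtrl A, against −0.53 without sh*Mettl14* A and −0.60 without shCtrl B.

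**Figure D2:**
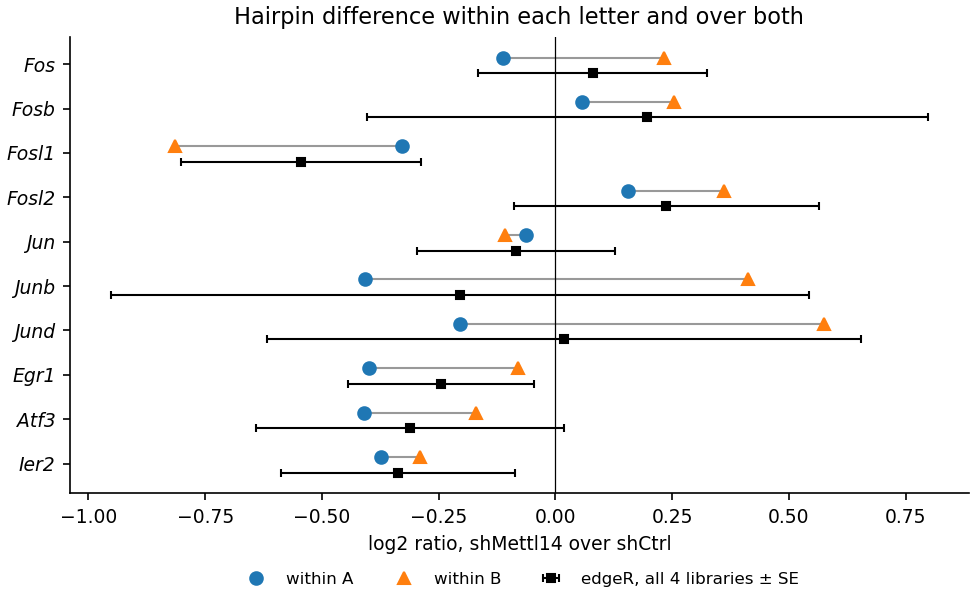
Log2 ratio of sh*Mettl14* over shCtrl for each gene, within letter A (circles), within letter B (triangles), and from edgeR over all 4 libraries (squares, with bars of ±1 SE). *Fosl1*, *Jun*, *Egr1*, *Atf3* and *Ier2* lie left of 0 within both letters, *Fosb* and *Fosl2* right of 0, and *Junb* and *Jund* have the widest gap between letters.

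The gap between the within-letter ratios (B minus A) was 0.82 for *Junb* and 0.78 for *Jund*, whereas its median size over the 9098 tested genes with a mean of at least 10 CPM was 0.24. Of these genes 3.83% had a larger gap than *Junb* and 4.75% a larger gap than *Jund*. With 1 library for each hairpin and letter this gap has no replicate and was not tested. *Junb* (ENSMUSG00000052837, minus strand of chromosome 8 from 84974484 to 84978718) shares 7.52% of its exon bases with *Prdx2* on the other strand. *Jund* (ENSMUSG00000071076, plus strand of chromosome 8 from 70698949 to 70700616) shares 52.6% with the antisense gene *Gm11175*, which had 0 counts in each library.

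*Egr1*, a zinc finger factor that is induced in VSMCs by injury and PDGF, was at 401 and 335 CPM in shCtrl A and B and at 304 and 317 CPM in sh*Mettl14* A and B. Both knockdown libraries were below both controls, at 75.8% of the control within A and 94.6% within B. The log2 fold change was −0.24 (SE 0.20, unadjusted p = 0.27 from edgeR), and it lay between −0.37 and −0.10 when libraries were left out, nearest to 0 without shCtrl A. *Egr1* (ENSMUSG00000038418) lies on the plus strand of chromosome 18 from 34859823 to 34864984, and no other gene shares its exons.

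*Ier2* (ENSMUSG00000053560, minus strand of chromosome 8 from 84661331 to 84662852), an early gene whose product is linked to cell motility, was at 125 and 93.0 CPM in shCtrl A and B and at 96.6 and 76.1 CPM in sh*Mettl14* A and B. It was lower with sh*Mettl14* by nearly the same amount within A (−0.37) and within B (−0.29), but sh*Mettl14* A lay above shCtrl B. The log2 fold change was −0.34 (SE 0.25, unadjusted p = 0.24 from edgeR), and it was −0.10 without shCtrl A. *Atf3* (ENSMUSG00000026628, minus strand of chromosome 1 from 191170296 to 191218039), a stress-induced factor that can repress as a homodimer, was at 16.7 and 10.8 CPM in shCtrl A and B and at 12.6 and 9.58 CPM in sh*Mettl14* A and B. The groups overlapped, and the log2 fold change of −0.31 (SE 0.33) became 0.045 without shCtrl A.

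The second comparison was between the letters within a hairpin, which shows how far the same treatment differed from library to library. For 7 of the 10 genes the letters differed more within shCtrl than the hairpins did within either letter. No share over all tested genes is given for this count. The median size of the letter difference within shCtrl was 0.37 over the 9098 genes of at least 10 CPM. In letter B 7 genes were lower within both hairpins, against 36.7% of all tested genes, *Fos* and *Fosb* were higher within both, against 35.5%, and *Egr1* had opposite signs. *Junb* was 4.07-fold higher in A than in B with shCtrl and 2.31-fold with sh*Mettl14*, and *Jund* 3.31-fold and 1.93-fold. Only 1.30% of the 9098 genes of at least 10 CPM had a larger letter difference than *Junb* within shCtrl, and 2.06% a larger one than *Jund*. *Fosb* differed the other way, with log2 ratios of B over A of 1.17 within shCtrl and 1.37 within sh*Mettl14*, sizes exceeded by 6.35% and 1.96% of genes. *Fosl1* (−0.07) and *Fos* (0.16) were among the closest within shCtrl.

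The letter difference went with the GC content of the transcript. Over 8806 genes with a coding transcript and at least 10 CPM, the median log2 ratio of B over A within shCtrl was 0.35 in the tenth of genes with the lowest GC content and −0.60 in the tenth with the highest, and within sh*Mettl14* it was 0.25 and −0.46. Spearman's correlation coefficient across genes, which share the libraries and are not independent, was −0.50 within shCtrl and −0.55 within sh*Mettl14*. *Junb* has a GC content of 62.6% and *Jund* of 67.1%, above 99.0% and 99.9% of these genes. When the median of its GC bin (1 of 20 bins of equal size) was taken off each library, the log2 ratio of B over A of *Junb* was −1.20 within shCtrl and −0.62 within sh*Mettl14*, and that of *Jund* −0.90 and −0.36, so part of the difference was still there. The bin of highest GC content spans a wide range, in which *Jund* lies near the upper end. *Ier2*, with 60.9% GC, had smaller letter differences (−0.43 and −0.34), which became 0.40 and 0.24, and *Fosb*, with 56.0% GC, lay on the other side of the median of its bin, with 1.45 and 1.54 after the correction.

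**Figure D3:**
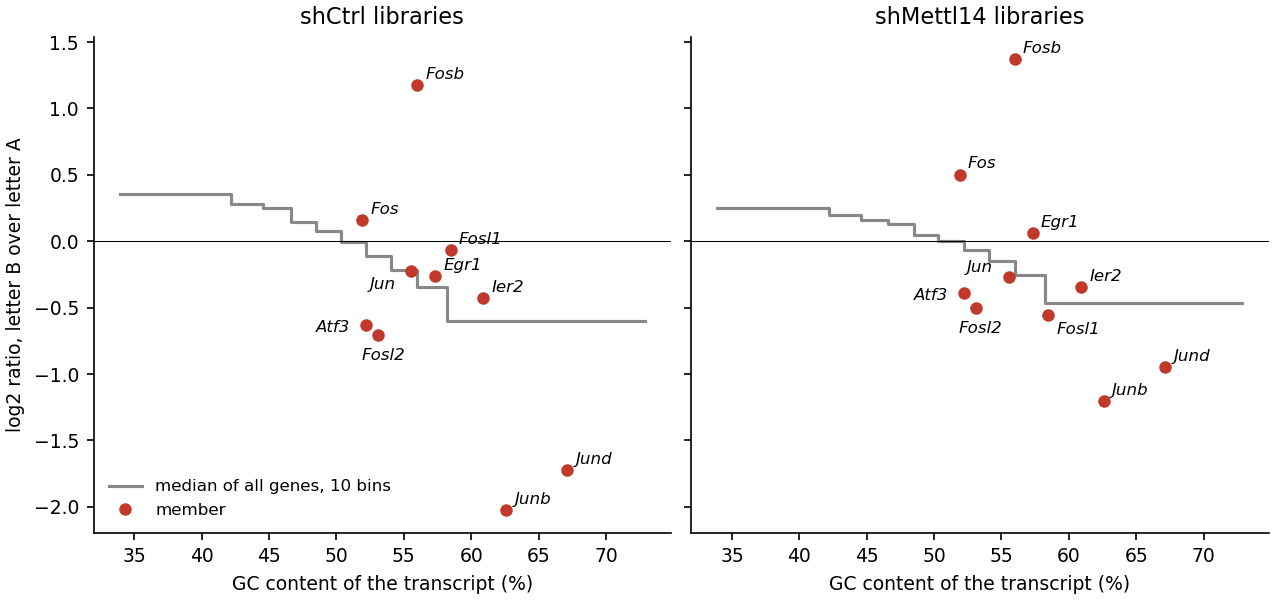
Log2 ratio of letter B over letter A against the GC content of the transcript, within shCtrl (left) and within sh*Mettl14* (right). Red points are the 10 genes and the grey line is the median of 10 equal-sized bins of 8806 genes, which drops from 0.35 to −0.60 within shCtrl and from 0.25 to −0.46 within sh*Mettl14*. *Junb* and *Jund* lie far below the line and *Fosb* far above it.

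Per kb of exon, the FOS family had nearly the same sum in each library (103 and 94.6 CPM per kb with shCtrl, 98.5 and 98.7 with sh*Mettl14*), whereas the sum of the JUN family was 299 and 104 in shCtrl and 243 and 127 in sh*Mettl14*. JUN mRNAs thus exceeded FOS mRNAs 2.91-fold and 2.47-fold in the A libraries but 1.10-fold and 1.29-fold in the B libraries. *Junb* made up 59.9% of the JUN family in shCtrl A and 42.2% in shCtrl B, against 55.6% (A) and 45.9% (B) with sh*Mettl14*. Within the FOS family the share of *Fosl1* was 25.1% and 25.9% with shCtrl and 20.8% and 14.1% with sh*Mettl14*, while that of *Fosl2* was 34.3% and 22.9% with shCtrl and 39.9% and 28.2% with sh*Mettl14*. The share of *Fosl1* was below both controls in both knockdown libraries, and the share of *Fosl2* overlapped. *Fos* itself ranged from 37.5% to 53.0% of its family, with both B libraries above both A libraries.

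**Figure D4:**
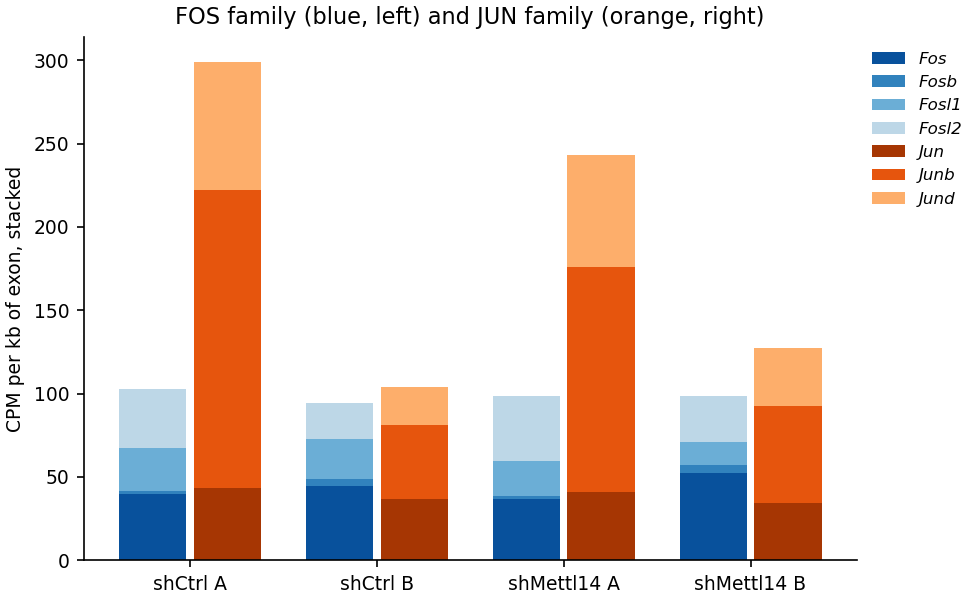
CPM per kb of exon, stacked, for the FOS family (blue, left bar) and the JUN family (orange, right bar) in each library. The FOS bars reach 94.6 to 103, and the JUN bars 243 and 299 in the A libraries and 104 and 127 in the B libraries.

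Lists of 131 genes around AP-1 were examined in the same fit. With edgeR none of their genes passed an adjusted p of 0.05, and 1 had an unadjusted p under 0.05. Of 39 other early response genes, 23 were lower with sh*Mettl14* within both letters and 4 higher, and the median log2 fold change was −0.17. Over all 18916 tested genes 27.7% were lower and 30.0% higher within both letters, which is the background for each list here. *Ctgf*, the matricellular growth factor gene and the one with an unadjusted p under 0.05, was at 3428 and 3432 CPM in shCtrl A and B and at 2307 and 2104 in sh*Mettl14* A and B, a log2 fold change of −0.64 (SE 0.18, unadjusted p = 0.017 and adjusted p = 0.99997 from edgeR). *Egr2*, a paralog of *Egr1*, was at 9.78 and 5.89 CPM with shCtrl and 4.43 and 3.87 with sh*Mettl14* (−0.92, SE 0.37). *Ptgs2*, which encodes the inducible cyclooxygenase COX-2, was at 435 and 228 CPM with shCtrl and 262 and 110 with sh*Mettl14* (−0.83, SE 0.52), so that its groups overlapped.

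Of 12 other bZIP genes that can pair with FOS or JUN or share their sites, 3 were lower and 2 higher within both letters, with a median of −0.08. *Jdp2*, a JUN dimerization protein that represses AP-1, had a log2 fold change of −0.28 (SE 0.26) and *Maf* of 0.20 (SE 0.25). Of 23 kinases and promoter factors upstream, 9 were lower and 6 higher within both letters, with a median of −0.07. The kinases with the largest differences of 1 sign were *Mapk14*, which encodes p38α (−0.45, SE 0.20), *Mapk3*, which encodes ERK1 (−0.42, SE 0.19), and *Map2k2*, which encodes MEK2 (−0.35, SE 0.43). *Mapk3* was at 269 and 250 CPM with shCtrl and 200 and 189 with sh*Mettl14*. Its sh*Mettl14* libraries were both below both controls, as for 13.3% of all tested genes.

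Of 14 genes of negative feedback, MAPK phosphatases and EGR1 corepressors among them, 6 were lower and 5 higher within both letters, with a median of −0.10. *Nab1*, an EGR1 corepressor (−0.53, SE 0.30), the ERK phosphatase *Dusp5* (−0.49, SE 0.38) and *Dusp8* (0.43, SE 0.35) had the largest differences. Of 10 genes for AU-rich element binding and early mRNA turnover, 1 was lower and 6 were higher within both letters, with a median of 0.09. The shares over all tested genes were 27.7% lower and 30.0% higher. *Tia1* was at 43.7 and 68.4 CPM with shCtrl and 63.8 and 99.5 with sh*Mettl14* (0.54, SE 0.34), *Hnrnpd*, which encodes AUF1, was lower (−0.50, SE 0.28), and *Tial1* differed by 0.26 (SE 0.20). Each of these differences had an unadjusted p above the threshold in edgeR.

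Of 23 AP-1 and EGR1 target genes, 13 were lower and 3 higher within both letters, against 27.7% and 30.0% of all tested genes. Their median log2 fold change was −0.31. *Mmp13*, the collagenase gene with a well-known AP-1 site, was at 0.836 and 3.20 CPM with shCtrl and 0.590 and 0.876 with sh*Mettl14* (−1.46, SE 0.74), so that its groups overlapped. *Spp1*, which encodes osteopontin, was at 34.6 and 29.1 CPM with shCtrl and 23.1 and 12.0 with sh*Mettl14* (−0.86, SE 0.37). Its sh*Mettl14* libraries were both below both controls, as for 13.3% of all tested genes. *Mmp3* differed by −0.65 (SE 0.43). Of 12 heat shock and handling stress genes, which respond to the same stimuli as immediate early genes, 10 were lower and 1 higher within both letters, with a median of −0.32. *Hspb1* (−1.03, SE 0.67) and *Ddit3* (−0.45, SE 0.21) were lower and *Ddit4* higher (0.49, SE 0.66). Their summed level was 3753 and 4096 CPM with shCtrl and 2996 and 3337 CPM with sh*Mettl14*, below both controls as for *Fosl1* and *Egr1*, and its part in those differences was not tested.

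**Figure D5:**
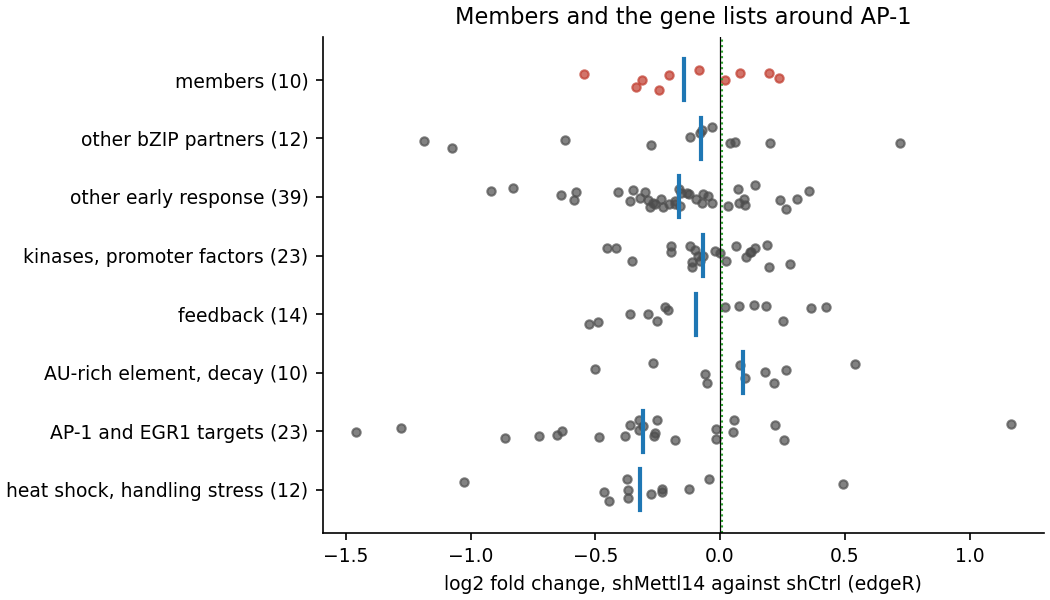
Log2 fold change of each gene (sh*Mettl14* against shCtrl, edgeR) for the 10 members (red) and for the 7 lists (grey), with the number of genes in brackets, the median of each list as a blue bar and the median of all 18916 tested genes (0.0094) as a dotted green line. The medians run from −0.32 for heat shock and handling stress to 0.09 for AU-rich element binding and decay, and no gene passed an adjusted p of 0.05.

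Among the 123 genes of these lists with a mean of at least 1 CPM, those with a pattern over the 4 libraries most like that of *Fos* were *Maf*, *Ccnd1*, *Elavl1*, *Tial1* and *Hsp90aa1*. Their Euclidean distances to *Fos*, on log2 CPM centred on each gene's mean, were 0.17, 0.24, 0.24, 0.27 and 0.27. The distance of *Egr1* to *Fos* was 0.52, the smallest among the other members, and that of *Junb* was 1.96, the largest. These 5 genes were picked as the nearest of the 123, so their smaller distances say nothing about the members. *Maf* was at 18.1 and 21.5 CPM with shCtrl and 19.8 and 25.8 with sh*Mettl14*.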

How the data were processed

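Reads were paired-end, from poly-A–enriched, stranded libraries. The authors used STAR for alignment to GRCm38, with the Ensembl 86 annotation, and featureCounts for counting. Their versions, the strand setting and the treatment of reads with several places are not given in the sources used here. The deposited values are these raw counts, 1 table of 48587 symbols and 4 columns, with 2 libraries per hairpin. The members, the gene lists and the rule for named genes (all members, list genes with an unadjusted p under 0.05, and the 3 largest differences of 1 sign in both letters per list, at a mean of at least 1 CPM, and the 5 list genes most like *Fos*) were chosen with earlier results of these data known. A gene that this rule names is not reported here.

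Counts were analysed on the whole table with edgeR 4.0.16 in R 4.3.3 (TMM, filterByExpr, 18916 genes, robust quasi-likelihood fit without a block, Benjamini-Hochberg adjustment). SE is the absolute log2 fold change over the square root of F. Within-letter ratios are differences of log2 CPM with a prior count of 2 and carry no test. The fits were run on simulated data with known changes, as a check of the steps, and the outcome is not given here. The dispersion (variance between libraries beyond counting error) set there was below that estimated from these data without a block (0.178). The simulation therefore does not measure the power of the fits on these data. Alternatives were RLE and upper-quartile factors, a minimum of 10 counts in each library or no filter, DESeq2 1.42.0, a replicate block, and each library left out. GC-bin offsets, alone and with the block, were added after seeing the data. Gene places, exon lengths and GC content came from GENCODE M21 (GRCm38), and promoter sequences from RefSeq (GRCm38.p6). Python 3.11.15 with numpy 2.4.6 and pandas 2.3.3 did the remaining steps.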

Additional observations from a re-analysis of the deposited data

How the results depend on the processing

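The count of members with an adjusted p under 0.05 was 0 in every fit, with edgeR under each normalization, filter, block and left-out library, with GC-bin offsets and with DESeq2, and so was that of each gene list. In the edgeR fit with TMM and no block it was 0 over all tested genes, *Mettl14* among them. A count of 0 there cannot show that the members were unchanged. With the letters as a replicate block, which is not known to be a true pairing, the log2 fold change of *Fosl1* was −0.57 (unadjusted p = 0.0074, adjusted p = 0.33 from edgeR), 1 of the 10 members had an unadjusted p under 0.05, against 10.3% of all genes in that fit, *Junb* changed sign to 0.0018, and the number of all genes called was 9 against 0. Deviations of same-letter libraries had a correlation of 0.58 across genes. GC-bin offsets, chosen after seeing the data, turned *Jun* to 0.0015 alone and to 0.0010 with the block, where 2 members had an unadjusted p under 0.05, against 11.6% of all genes in that fit, and 13 genes passed the adjusted threshold. Leaving out each library in turn gave ranges of −0.19 to 0.31 for *Fos*, −0.64 to 0.90 for *Fosb*, −0.076 to 0.64 for *Fosl2*, −0.22 to 0.047 for *Jun*, −0.93 to 1.14 for *Junb*, −0.60 to 1.13 for *Jund* and −0.60 to 0.045 for *Atf3*. The median log2 fold change of the members was −0.042 with the block and −0.0067 with the block and GC-bin offsets. The direction of *Fosl1*, *Egr1* and *Ier2* was the same in each fit. Each fit with a library left out compares unequal numbers of the letters, which differ, and the lone library of a group is assumed to vary like the others. The order of members per kb was the same on a TPM-like scale. At over 1000 counts per library for each member, the spread between libraries and not counting error set the SE.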
